A study of Homo sapiens with 12 samples.

Results

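Genes with neural, muscle, matrix and metabolic roles were followed through p53 activation in HCT116, an established line from a human colorectal carcinoma that keeps functional p53. They are SORCS2, CPLX2, SCN3B, POU3F1, DES, UNC45B, COL5A1, HMCN2, GGT6 and CBS, and they were taken by name from the 4 deposited tables as genes that rise with Nutlin-3a from a very low level. They were 10 of 23195 genes, and all 10 were listed in all 4 tables. The choice used the Nutlin-3a response itself. Values of that response are therefore given as a description without a test, and they support nothing about the choice.

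Cells of 4 groups were compared, with 3 replicate libraries each: siControl with DMSO, siControl with Nutlin-3a, siRFX7 with DMSO and siRFX7 with Nutlin-3a. Every group was transfected with an siRNA, either the control siRNA or one directed at RFX7, and then kept for 24 h either in 10 µM Nutlin-3a or in DMSO, the solvent. The labels do not say whether replicates were separate cultures, so errors measure the spread between these libraries only. PolyA RNA was sequenced, and the depth recovered from the tables averaged 26.6 to 27.3 M counts (M, mega) per library in the 4 groups.

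Nutlin-3a blocks the binding of MDM2 to p53. MDM2 normally marks p53 for destruction, so p53 accumulates and switches on its target genes, among them the cell cycle inhibitor CDKN1A and MDM2 itself. RFX7 is a transcription factor of the regulatory factor X family. Several of the 10 genes are best known from differentiated neurons, muscle or connective tissue, and an epithelial tumour line is not where their products usually work.

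The targeted gene was examined first. RFX7 had a recovered mean of 944 normalized counts in siControl with DMSO, 1332 in siControl with Nutlin-3a, 185 in siRFX7 with DMSO and 302 in siRFX7 with Nutlin-3a. A normalized count is a read count divided by a factor that levels sequencing depth between libraries. The epithelial markers KRT8, KRT18, KRT19, CDH1, EPCAM and CDX2 had means of 628 or more in every group, whereas VIL1 stayed between 3.67 and 17.5. Of 9 neuron markers 4 were listed, and of 9 muscle and fibroblast markers 5 were listed. Nutlin-3a in siControl raised none of the first 4 and 1 of the other 5, PDGFRB, which went from 7.03 to 19.3 counts. The neuronal nuclear marker RBFOX3 was listed only in the Nutlin-3a comparisons and was called in neither, and MYOD1, MYOG and DCX were not among the listed markers. MAP2 and TUBB3, also neuronal, had 271 and 76.8 counts in siControl with DMSO. The part of these markers in the results was not tested. Fewer cells with a given RNA and less of that RNA per cell cannot be told apart in these bulk libraries.

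The label of near-silent genes held for part of the set. In siControl with DMSO, POU3F1, UNC45B, COL5A1, CBS and GGT6 had means at or below 3 normalized counts, which is treated here as a floor. GGT6 at 2.0 was the nearest inside that floor and HMCN2 at 3.67 the nearest outside it. SCN3B, SORCS2 and CPLX2 started at 10.3, 12 and 15.7 counts. DES started at 55.4 counts, and 32.9% of 20026 genes lay below it in that group. Per kilobase of exon, the siControl DMSO level was 0.0321 normalized counts for COL5A1, 0.0632 for UNC45B, 0.633 for GGT6, 1.90 for SORCS2 and 22.5 for DES, against a median of 135 over 13667 protein-coding genes. DES is thus a low-level gene and not a near-silent one. All 10 genes had their lowest recovered mean in siControl with DMSO, and 8 had their highest in siRFX7 with Nutlin-3a, the exceptions being SORCS2 and GGT6. For POU3F1, UNC45B and GGT6 both DMSO means were under the floor, so their order there is not resolved. The choice of genes used these groups and the share over all genes was not computed, so nothing is read from these counts.

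**Figure D1:**
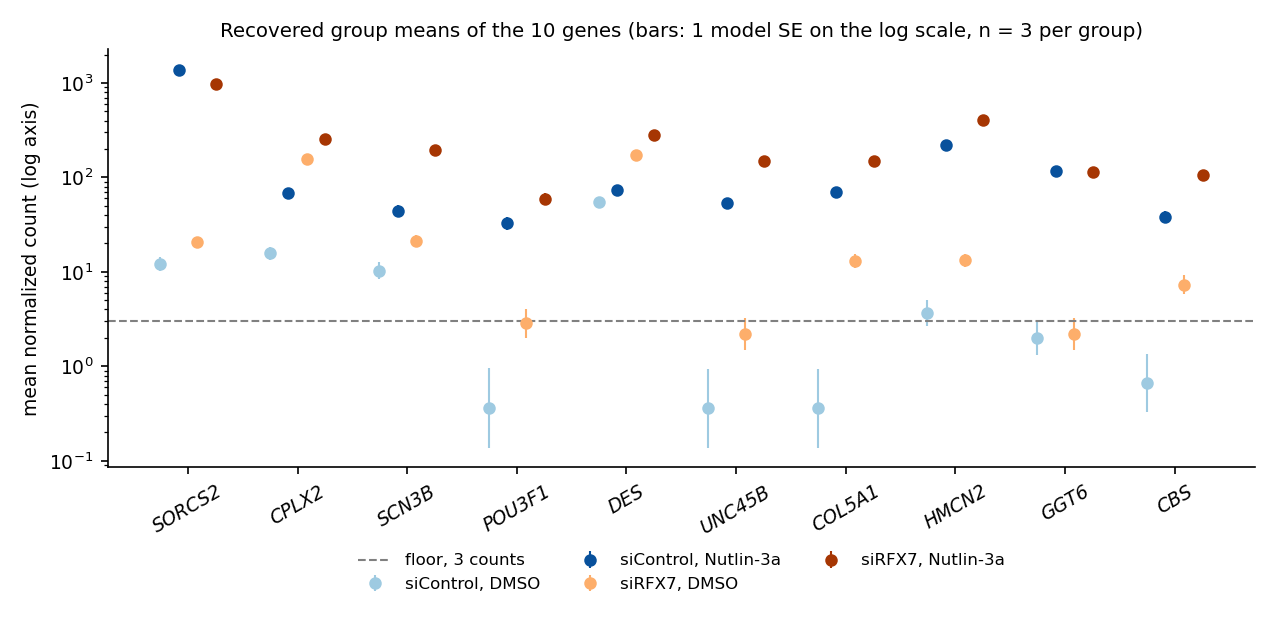
Recovered mean normalized count (log axis) of each of the 10 genes in the 4 groups of 3 libraries, with bars of 1 model standard error on the log scale and a dashed line at the floor of 3 counts. 5 genes lie under the line in siControl with DMSO, and all 10 lie above it with Nutlin-3a.

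The lowest means rest on very few reads. Multiplied by the recovered size factors, the siControl DMSO means came to 36 reads for SORCS2, 11 for HMCN2, 6 for GGT6 and 2 for CBS in the 3 libraries together. For POU3F1, UNC45B and COL5A1 the same product was 1.07 or 1.08 reads, the step of a single read. The deposited standard errors of those 3 genes in siControl, 1.19 to 1.21, were smaller than the 1.41 to 1.42 that the negative binomial formula gives at their recovered means. Their fold changes therefore have no firm upper size, and bounds against the floor are given beside them. Each bound, written as "at least", divides the recovered mean of the higher group by the floor. It leaves out the error of that mean, so it is not a confidence limit. Those bounds scale with the floor chosen: with a floor of 10 counts in place of 3, the siControl bounds fall to between 3.26-fold for POU3F1 and 11.6-fold for GGT6. The fitted spread between replicates, as a coefficient of variation from the recovered dispersion, was smallest for SORCS2 at 6.24% and largest for POU3F1 at 21.9%.

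RefSeq promoter sequences (build GRCh38.p14) were matched for 5 of the 10 genes, namely POU3F1, CPLX2, HMCN2, COL5A1 and CBS. The stretches below show how unlike each other they are: 3 GC-rich promoters of genes with at most 3.67 counts in siControl with DMSO, and a piece of the CPLX2 promoter. Each of the first 3 runs from 250 to 51 bases before the annotated start. Capitals mark CCAAT and GGGCGG on either strand, and in the CPLX2 piece the letters GTTGCC read on the opposite strand, which form part of the X-box motif that RFX proteins bind. Of the 30 bases of that piece, 24 lie in an annotated GENCODE exon. In POU3F1 a CCAAT and a GGGCGG overlap in none of their letters but stand side by side. The positions are chr1:38046844-38047043 on the minus strand for POU3F1, chr9:134641553-134641752 on the plus strand for COL5A1, chr9:130265510-130265709 on the plus strand for HMCN2 and chr5:175796304-175796333 on the plus strand for CPLX2.
POU3F1: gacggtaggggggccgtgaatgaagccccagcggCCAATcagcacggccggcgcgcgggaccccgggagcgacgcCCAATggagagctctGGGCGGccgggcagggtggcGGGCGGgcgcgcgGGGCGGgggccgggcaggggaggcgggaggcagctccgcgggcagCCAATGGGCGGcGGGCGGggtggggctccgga
COL5A1: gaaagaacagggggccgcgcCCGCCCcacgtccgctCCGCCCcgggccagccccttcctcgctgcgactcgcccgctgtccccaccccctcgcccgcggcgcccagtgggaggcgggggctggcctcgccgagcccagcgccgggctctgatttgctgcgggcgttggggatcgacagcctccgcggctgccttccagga
HMCN2: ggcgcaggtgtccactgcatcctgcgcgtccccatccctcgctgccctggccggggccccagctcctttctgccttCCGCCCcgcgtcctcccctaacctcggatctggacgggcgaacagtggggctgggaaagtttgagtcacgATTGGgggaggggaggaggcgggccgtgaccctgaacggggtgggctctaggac
CPLX2: gtgagtggggttGGCAACagagcaggtagg

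Over the 250 bases before the start, GC content was 80.8% for POU3F1, 74.0% for COL5A1, 72.0% for HMCN2 and 56.8% for CPLX2, against a median of 58.0% over 35116 RefSeq promoters. The ratio of observed to expected CpG was 0.962, 0.847, 0.742 and 0.298 in the same order, with a median of 0.558 over all promoters. GGGCGG matched 5 times in POU3F1, 2 times in COL5A1, once in HMCN2 and nowhere in CPLX2, and 42.6% of all promoters held it. CCAAT matched 3 times in POU3F1 and once in HMCN2, and 32.0% of all promoters held it. GTTGCC matched in CPLX2 alone among these genes, and 10.2% of all promoters held it. None of the 5 genes had a match to the p53 half-site consensus in this window, which 5.57% of all promoters held. CBS has 3 RefSeq entries, with GC contents of 80.8%, 81.2% and 52.0% and CpG ratios of 1.01, 0.610 and 0.180, and over the 3 entries GGGCGG matched 5 times and CCAAT 3 times. These matches describe letters in short windows and nothing about binding, and a missing match is no evidence on a factor that may bind elsewhere.

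The first comparison asks how the genes respond to p53 activation when RFX7 is intact. In siControl, the authors' deposited table called 9 of the 10 genes higher under Nutlin-3a, at a threshold of 0.05 on the DESeq2 adjusted p. It called 22.0% of all genes higher and 21.2% lower. The choice of genes fixes this count and nothing is read from it. The gene not called was DES. The median log2 fold change of the 10 genes was 5.89, against 0.02 over all 23195 genes. The second comparison repeats the question under the RFX7 knockdown. In siRFX7 all 10 genes were called higher in the authors' deposited table, where 21.7% of all genes were higher and 19.7% lower, with a median of 4.11 against -0.02 over all genes.

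Among the neural genes SORCS2 moved furthest in reads. SORCS2 (ENSG00000184985, chromosome 4 from 7192538 to 7742836, plus strand, GRCh38) encodes a sorting receptor of the Vps10p-domain family that binds neurotrophin precursors together with NGFR. Its recovered mean was 12 ± 2.05 normalized counts (model SE) in siControl with DMSO, 1378 ± 54.2 in siControl with Nutlin-3a, 20.6 ± 2.66 in siRFX7 with DMSO and 986 ± 39.9 in siRFX7 with Nutlin-3a. The DMSO groups were both low and the Nutlin-3a groups both high, with no approach between them at these errors. The authors' deposited tables gave it a log2 fold change of 6.84 (SE 0.25) in siControl and 5.58 (SE 0.20) in siRFX7, ratios of 115 and 47.9. It went from above 6.23% to above 62.3% of protein-coding genes per kilobase of exon in siControl, the only one of the 10 genes to pass the median protein-coding level there.

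CPLX2, a complexin that clamps and promotes synaptic vesicle fusion (ENSG00000145920, chromosome 5 from 175796310 to 175884020, plus strand), followed another order. Its means were 15.7 ± 2.50 in siControl with DMSO, 67.7 ± 6.49 in siControl with Nutlin-3a, 156 ± 12.3 in siRFX7 with DMSO and 256 ± 19.0 in siRFX7 with Nutlin-3a. The siRFX7 DMSO cells thus stood above siControl cells given Nutlin-3a. Its Nutlin-3a log2 fold change in the authors' deposited tables was 2.11 (SE 0.27) in siControl and 0.71 (SE 0.16) in siRFX7. In siRFX7 with DMSO this gene was far from silent.

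SCN3B, an auxiliary beta subunit of voltage-gated sodium channels (ENSG00000166257, chromosome 11 from 123629187 to 123655244, minus strand), had means of 10.3 ± 2.12, 44.3 ± 5.82, 21.2 ± 3.32 and 195 ± 20.7 in siControl with DMSO, siControl with Nutlin-3a, siRFX7 with DMSO and siRFX7 with Nutlin-3a. The last group stood well above the others. The authors' deposited tables gave it a log2 fold change of 2.10 (SE 0.35) in siControl and 3.20 (SE 0.27) in siRFX7. Only SCN3B and DES had a larger log2 rise in siRFX7 than in siControl.

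POU3F1, a POU-domain transcription factor known from myelinating Schwann cells, is a gene of 1 exon (ENSG00000185668, chromosome 1 from 38044611 to 38046794, minus strand). It had 0.359 normalized counts in siControl with DMSO, 32.6 ± 5.29 in siControl with Nutlin-3a, 2.85 in siRFX7 with DMSO and 58.9 ± 8.67 in siRFX7 with Nutlin-3a. Both DMSO means were under the floor and both Nutlin-3a means were over it. Against the floor, POU3F1 was at least 10.9-fold higher with Nutlin-3a in siControl and at least 19.6-fold higher in siRFX7, from values of the authors' deposited tables. The deposited log2 fold changes behind these bounds, in the authors' deposited tables, were 6.50 (SE 1.21) and 4.37 (SE 0.56).

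The muscle genes behaved unlike each other. UNC45B, a chaperone that folds muscle myosin (ENSG00000141161, chromosome 17 from 35147817 to 35189345, plus strand), had 0.359 and 2.22 counts in the siControl and siRFX7 DMSO groups, and 54.1 ± 6.80 and 149 ± 16.2 in the Nutlin-3a groups. It was at least 18.0-fold higher with Nutlin-3a in siControl and at least 49.5-fold higher in siRFX7, from values of the authors' deposited tables. DES, the muscle intermediate filament protein desmin (ENSG00000175084, chromosome 2 from 219418377 to 219426739, plus strand), had 55.4 ± 5.70 and 173 ± 13.8 in the DMSO groups and 73.8 ± 7.05 and 283 ± 21.4 in the Nutlin-3a groups. The siRNA separated the DES groups more than the drug did. Its log2 fold change with Nutlin-3a was 0.41 (SE 0.20) in siControl and 0.71 (SE 0.16) in siRFX7, in the authors' deposited tables.

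Both matrix genes lie on chromosome 9. COL5A1 (ENSG00000130635, from 134641774 to 134844843, plus strand) encodes the alpha 1 chain of type V collagen, which starts and regulates the assembly of collagen fibrils. It had 0.359 counts in siControl with DMSO, 70.9 ± 7.72 in siControl with Nutlin-3a, 13.0 ± 2.30 in siRFX7 with DMSO and 148 ± 14.4 in siRFX7 with Nutlin-3a. It was off the floor without the drug only under siRFX7. With Nutlin-3a it was at least 23.6-fold higher in siControl and 11.4-fold higher in siRFX7, from values of the authors' deposited tables.

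HMCN2 encodes hemicentin 2, a very large protein of the extracellular matrix (ENSG00000148357, from 130265882 to 130434123, plus strand). Its means were 3.67 ± 1.12 in siControl with DMSO, 223 ± 14.4 in siControl with Nutlin-3a, 13.3 ± 2.17 in siRFX7 with DMSO and 411 ± 24.3 in siRFX7 with Nutlin-3a. The Nutlin-3a groups stood above the DMSO groups, and siRFX7 above siControl within each. The authors' deposited tables gave it a log2 fold change of 5.92 (SE 0.45) in siControl and 4.95 (SE 0.25) in siRFX7, ratios of 60.6 and 30.9.

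GGT6, a member of the gamma-glutamyl transferase family (ENSG00000167741, chromosome 17 from 4556927 to 4560818, minus strand), gave nearly the same values under both siRNAs. It had 2.0 and 2.22 counts in the siControl and siRFX7 DMSO groups, and 116 ± 11.2 and 114 ± 11.1 in the Nutlin-3a groups. It was at least 38.8-fold higher with Nutlin-3a in siControl and at least 38.2-fold higher in siRFX7, from values of the authors' deposited tables. The 95% intervals of its log2 fold change began at 4.65 in siControl and 4.56 in siRFX7, which is lower than these bounds.

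CBS, the enzyme that joins homocysteine and serine in the first step of transsulfuration (ENSG00000160200, chromosome 21 from 43053191 to 43076943, minus strand), is uncertain because of a near-identical copy. Of the distinct 31-base words in its annotated transcripts, 55.9% also occur in those of CBSL (chromosome 21 from 6444869 to 6468040), and 93.8% of the words of CBSL occur in CBS. How reads with several matches were counted is not given in the sources used here. The means of CBS were 0.668 in siControl with DMSO, 38.5 ± 5.19 in siControl with Nutlin-3a, 7.28 ± 1.67 in siRFX7 with DMSO and 105 ± 11.7 in siRFX7 with Nutlin-3a. Those of CBSL were 0.668, 15.6 ± 3.26, 1.27 and 46.1 ± 7.88. Both entries were low in DMSO and higher with Nutlin-3a, and reads dropped for matching both could not be seen. CBS was at least 12.8-fold higher in siControl and 14.4-fold higher in siRFX7, from values of the authors' deposited tables. Among the other 9 genes the share of words found in another gene was at most 5.04%, in GGT6.

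**Figure D2:**
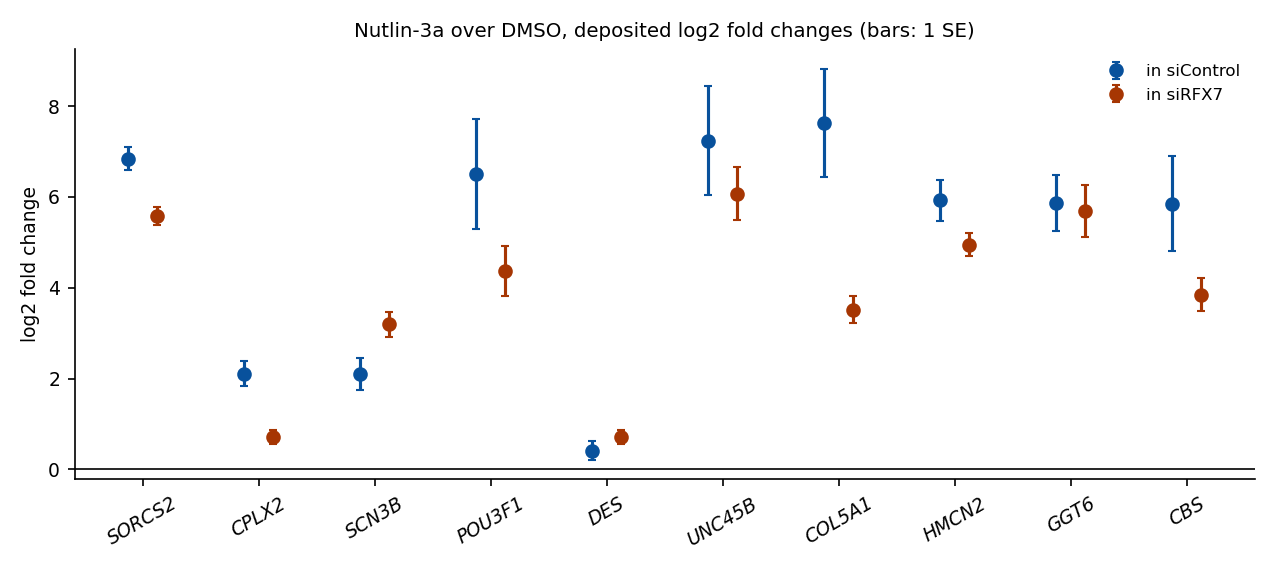
Log2 fold change of Nutlin-3a over DMSO in siControl and in siRFX7 for each gene, from the authors' deposited tables, with bars of 1 standard error. The bars of POU3F1, UNC45B and COL5A1 in siControl are long (1.19 to 1.21) because the DMSO mean rests on about 1 read. SCN3B and DES are higher in siRFX7, though neither difference was called.

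CLCA2, a chloride channel regulator known as a p53 target and not among the 10 genes, gave a pattern like that of COL5A1. It had 0.667, 63.9 ± 7.40, 5.38 ± 1.39 and 161 ± 16.2 counts in siControl with DMSO, siControl with Nutlin-3a, siRFX7 with DMSO and siRFX7 with Nutlin-3a. For scale, MDM2 went from 4705 to 74982 normalized counts and CDKN1A from 5493 to 121149 in siControl, from baselines far above those of the near-silent genes.

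Genes with a low baseline were also read as a class. The baseline was read in the DMSO group that each comparison does not use. Group means could be recovered for 20026 of the 23195 genes only. The rest were not listed in the siRFX7 comparison in DMSO and are missing from both classes. The lowest mean normalized count listed was 2.98 in that comparison and 0.998 in the Nutlin-3a ones, so the shares leave out genes of very low level. Of 6258 genes with a mean of at most 50 counts in siRFX7 with DMSO, 11.8% were called higher in siControl in the authors' deposited table and 7.94% lower. Of 6438 genes with at most 50 counts in siControl with DMSO, 10.8% were called higher in siRFX7 and 8.81% lower. In the first class, 40 genes were called higher with a log2 fold change of at least 5, and 7 of the 10 genes described here were among them, which is how they were chosen. The 10 largest rises in that class were those of LCE1F, COL5A1, UNC45B, AL590434.1, LCE1C, SORCS2, AC005906.2, CLCA2, ANKRD65 and POU3F1. SORCS2 had the smallest standard error of these 10 at 0.25, while the others had 1.04 or more in the authors' deposited table.

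**Figure D3:**
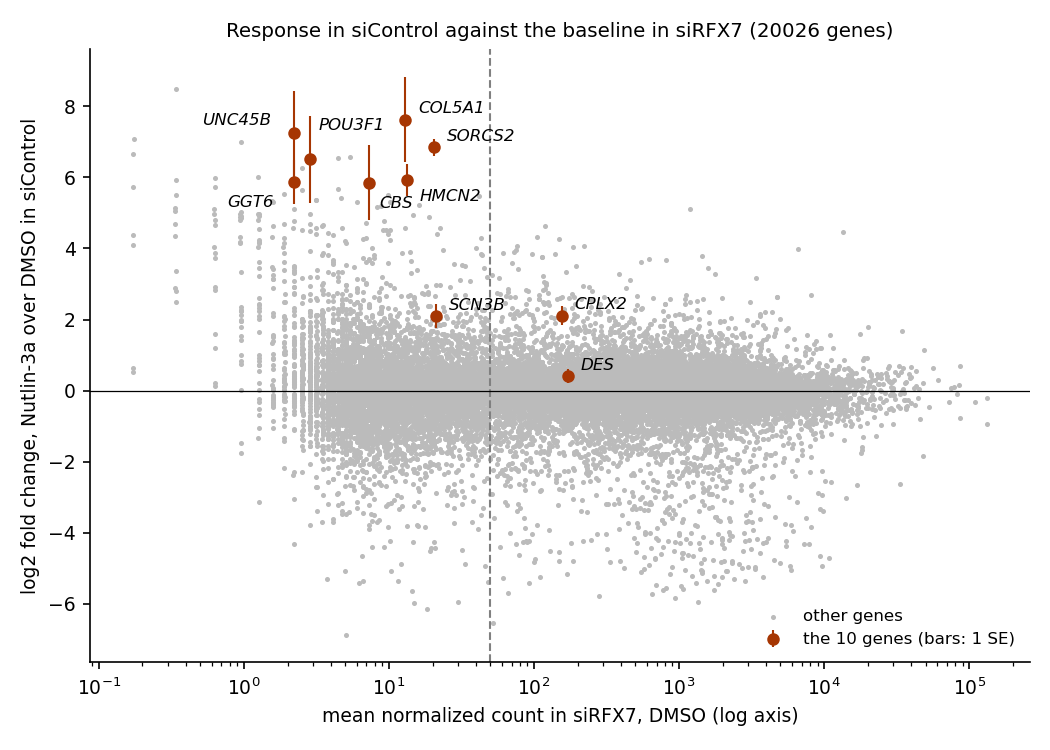
Log2 fold change with Nutlin-3a in siControl against the mean normalized count in siRFX7 with DMSO (log axis) for 20026 genes in grey and the 10 genes with bars of 1 standard error; the dashed line marks 50 counts. 7 of the genes sit above a log2 fold change of 5, SCN3B and CPLX2 near 2.1, and DES at 0.41.

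The siRFX7 comparisons ask what the knockdown does to these genes at rest and under Nutlin-3a. They share libraries with the Nutlin-3a responses that chose the genes. A low siControl DMSO mean tilts the first upward, and a low siRFX7 DMSO mean tilts it downward. A high siControl Nutlin-3a mean tilts the second downward, and a high siRFX7 Nutlin-3a mean tilts it upward. CPLX2 and COL5A1 had also been picked from the DMSO comparison, and SCN3B and DES from the Nutlin-3a one, and no p is given for them there. In DMSO, 7 of the 10 genes were called higher with siRFX7 and none lower in the authors' deposited table, where 13.5% of all genes were higher and 15.5% lower. Without CPLX2 and COL5A1 the count was 5 of 8, and since the low siControl DMSO libraries chose the genes, nothing is read from it and no p is given for this comparison. In Nutlin-3a, 8 were called higher and SORCS2 lower in the authors' deposited table, where 15.0% were higher and 13.6% lower. Without SCN3B and DES, 6 of 8 were called higher and 1 lower. Since the Nutlin-3a libraries also chose the genes, nothing is read from these counts and no p is given for this comparison either.

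In DMSO the siRFX7 over siControl log2 fold change was 5.18 (SE 1.21) for COL5A1 and 3.32 (SE 0.26) for CPLX2 in the authors' deposited table. COL5A1 went from about 1 to 41 reads, at least 4.33-fold higher against the floor (1.30-fold with a floor of 10 counts), and CPLX2 from 47 to 493 reads. The value in the authors' deposited table was 1.64 (SE 0.19) for DES, 1.86 (SE 0.50) for HMCN2 and 3.45 (SE 1.08) for CBS. The CBS ratio is at least 2.43-fold against the floor. SCN3B had 1.04 (SE 0.37) and SORCS2 0.78 (SE 0.31) in the authors' deposited table. POU3F1, UNC45B and GGT6 were the 3 not called. Values in the authors' deposited table were 2.99 (SE 1.30) for POU3F1, 2.63 (SE 1.31) for UNC45B and 0.15 (SE 0.82) for GGT6. In all 3 genes both groups were at or under the floor, so the size of a difference is poorly fixed at this depth. The 95% intervals ran from 0.45 to 5.53 for POU3F1, 0.05 to 5.20 for UNC45B and -1.46 to 1.75 for GGT6.

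In Nutlin-3a the same genes had more reads and narrower errors. SCN3B at 2.13 (SE 0.24) and DES at 1.94 (SE 0.18) had the largest log2 fold changes of siRFX7 over siControl in the authors' deposited table, ratios of 4.39 and 3.83. They had been picked from this comparison, so nothing is read from their rank. CPLX2 was higher by 1.92 (SE 0.18) and UNC45B by 1.46 (SE 0.24) in the authors' deposited table. COL5A1 was higher by 1.07 (SE 0.21), CBS by 1.44 (SE 0.25), HMCN2 by 0.88 (SE 0.13) and POU3F1 by 0.85 (SE 0.32) in the authors' deposited table.

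SORCS2 and GGT6 were the genes not called higher there. SORCS2 had a log2 fold change of -0.48 (SE 0.08) with siRFX7 under Nutlin-3a, by the authors' deposited table, a ratio of 0.715. GGT6 had a log2 fold change of -0.02 (SE 0.20) there in the authors' deposited table, with a 95% interval from -0.41 to 0.36. This interval does not show that the groups were alike.

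**Figure D4:**
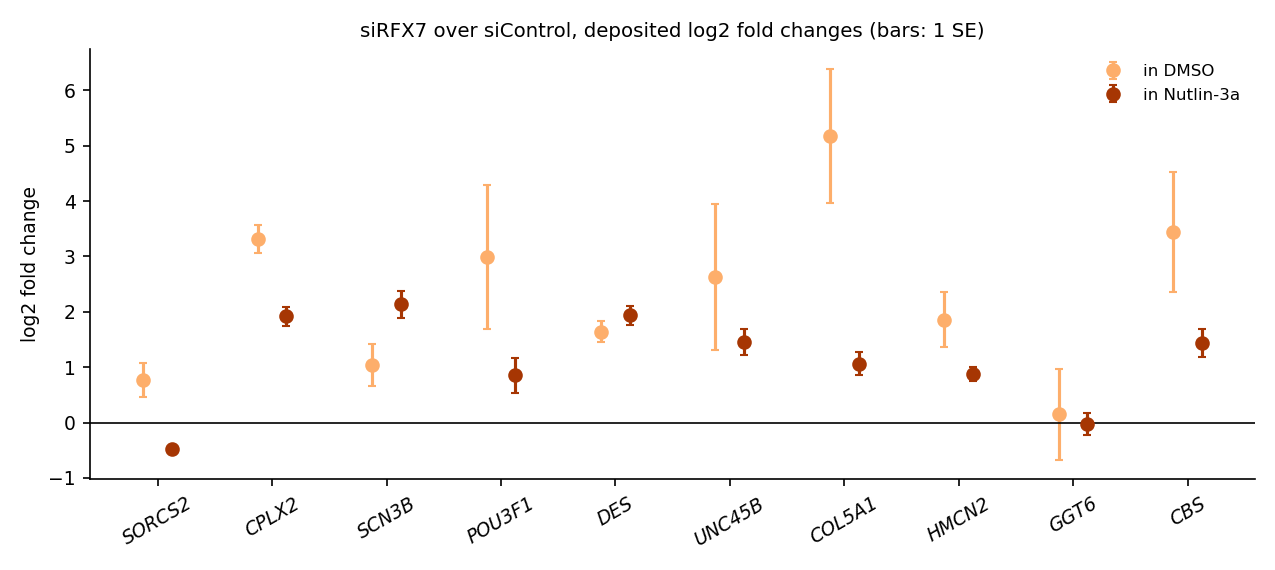
Log2 fold change of siRFX7 over siControl in DMSO and in Nutlin-3a for each gene, from the authors' deposited tables, with bars of 1 standard error. 8 genes lie above 0 in both treatments, GGT6 lies at 0, and SORCS2 lies above 0 in DMSO and at -0.48 in Nutlin-3a.

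The 2 siRNAs can be set against each other on a ratio scale and on a count scale, and the scales gave different orders. On the log2 scale the Nutlin-3a response was smaller in siRFX7 for 8 of the 10 genes, and the difference, siRFX7 minus siControl, had a median of -1.21. It was called below 0 by the z test for SORCS2, CPLX2 and COL5A1, where 2.92% of all genes were below 0 and 3.28% above. Since the siControl response chose the genes, nothing is read from this count. For COL5A1 the test used the deposited siControl error of 1.19, smaller than the 1.41 of the negative binomial formula, and was not repeated with the latter. In normalized counts, the gain from DMSO to Nutlin-3a was larger in siRFX7 for 8 of the 10 genes, and 6 of those had the smaller log2 rise. The share over all genes was not computed, and the Nutlin-3a responses chose the genes, so nothing is read from this count. Among the 8 genes with a larger gain in siRFX7, the difference was least clear for CPLX2, at 47.7 (SE 23.7), and POU3F1, at 23.8 (SE 10.2). For GGT6 it was -2.19 (SE 15.8), which is not resolved from 0.

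The gain of SCN3B was 34.0 ± 6.19 counts (model SE) in siControl and 174 ± 21 in siRFX7, a ratio of 5.10. DES had differences of 18.3 ± 9.06 and 110 ± 25.4, of which the first was not called, so that its ratio of 5.99 is imprecise. SCN3B and DES had been picked from the siRFX7 comparison in Nutlin-3a, whose libraries enter these ratios. For UNC45B the gains were 53.7 ± 6.81 and 146 ± 16.2, and for CBS 37.9 ± 5.21 and 97.7 ± 11.9. UNC45B and CBS gained 2.72 and 2.58 times as many counts under siRFX7. COL5A1 gained 70.5 ± 7.73 and 135 ± 14.5 counts, a ratio of 1.92, although its log2 difference was -4.11. CPLX2 gained 52.0 ± 6.96 and 99.7 ± 22.7, HMCN2 219 ± 14.5 and 398 ± 24.4, and POU3F1 32.2 ± 5.30 and 56.0 ± 8.73. COL5A1, CPLX2, HMCN2 and POU3F1 therefore gained between 1.74 and 1.92 times as many counts. GGT6 gained 114 ± 11.3 and 112 ± 11.1 counts, and SORCS2 gained fewer under siRFX7, 965 ± 40.0 against 1366 ± 54.2.

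**Figure D5:**
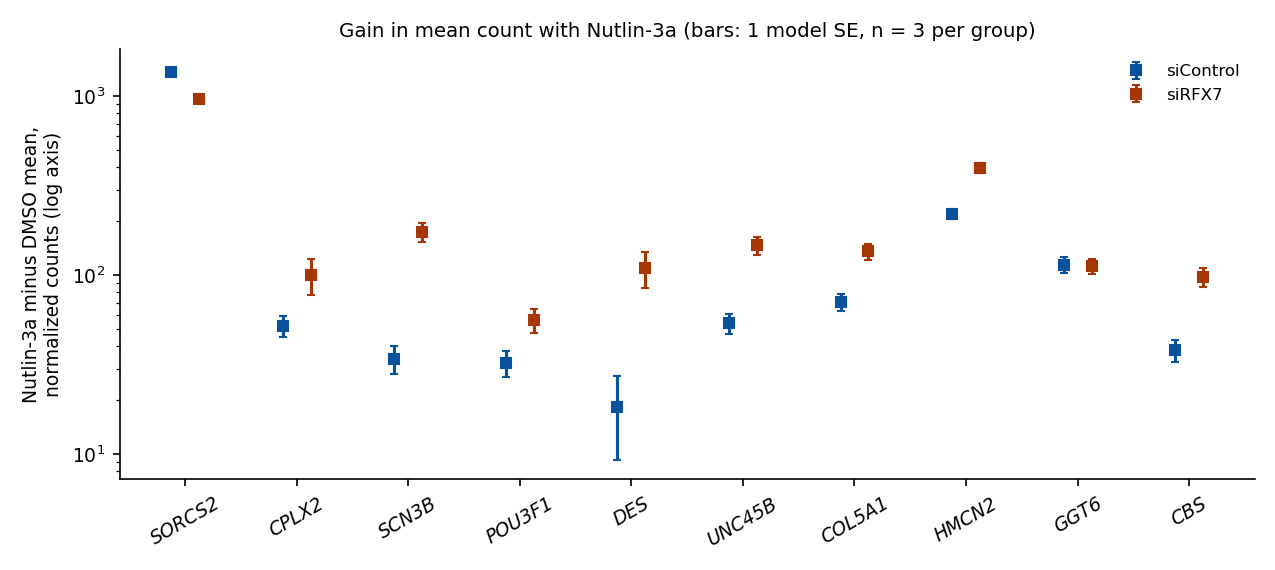
Gain in mean normalized count from DMSO to Nutlin-3a (log axis) in siControl and in siRFX7, with bars of 1 model standard error, 3 libraries per group. 8 genes gained more counts in siRFX7, GGT6 gained 114 and 112, and SORCS2 gained more in siControl.

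Relatives of each gene were read from family lists, and each count below stands against 22.0% of all genes called higher and 21.2% lower with Nutlin-3a in siControl. The lists are short and nothing particular to them is read from the counts. Of the 15 other listed genes of synaptic vesicle release, 8 were called higher and 2 lower with Nutlin-3a in siControl in the authors' deposited table. The complexin CPLX1 went from 332 to 569 counts, RAB3A, a vesicle GTPase, from 277 to 727, and SNAP25, a SNARE protein, from 14.7 to 2.37. Their median log2 fold change was 0.23. Of 7 other sortilin receptors and neurotrophin partners, BDNF alone was called higher, and NGFR and SORT1 were called lower, with a median of -0.05. None of those 7 approached the change of SORCS2, and NGFR, its co-receptor, went from 439 to 210 counts.

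Of 9 other listed sodium channel subunits, 1 was called higher and 4 lower with Nutlin-3a in siControl in the authors' deposited table. The one that rose was SCN2A, a pore-forming subunit, with 9.69, 89.2, 47.2 and 279 counts in siControl with DMSO, siControl with Nutlin-3a, siRFX7 with DMSO and siRFX7 with Nutlin-3a. That is the same order of group means as for SCN3B. Among 5 other POU factors none was called higher and POU2F1 and POU6F1 were called lower in siControl.

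In the muscle list, 8 of 22 other listed genes were called higher and 5 lower with Nutlin-3a in siControl in the authors' deposited table, with a median of -0.15. The smooth muscle actin ACTA2 went from 96.1 to 933 counts and syncoilin, SYNC, which binds desmin, from 44.7 to 251. VIM, the intermediate filament vimentin, went the other way from 159 to 17.0. UNC45A, the general relative of UNC45B, went from 4070 to 5439 counts.

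Of 10 other fibrillar collagen genes, COL11A1 and COL27A1 were called higher and none lower in siControl, with a median of 0.68. COL11A1 had 0.358, 10.8, 1.26 and 14.5 counts in siControl with DMSO, siControl with Nutlin-3a, siRFX7 with DMSO and siRFX7 with Nutlin-3a. COL5A2, whose product assembles with that of COL5A1, had 96.2 and 136 counts in the siControl groups and was not called there. Per kilobase of exon with Nutlin-3a in siControl, COL5A1 reached 6.33 counts, COL5A2 18.2 and COL1A1 35.6. Of 6 other hemicentins and fibulins, FBLN1 was called lower and none higher, and HMCN1 had 19.4 and 17.3 counts in the siControl groups.

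Among 6 other listed gamma-glutamyl transferases, GGT1 and GGT2 were called higher in siControl under Nutlin-3a, and none was called lower. GGT1 had 198, 463, 507 and 1304 counts in siControl with DMSO, siControl with Nutlin-3a, siRFX7 with DMSO and siRFX7 with Nutlin-3a, so it differed between siRNAs where GGT6 did not pass. GGT1 and GGT2 are close paralogs and their split of reads is uncertain. Of 11 other transsulfuration and glutathione genes, 4 were called higher and 4 lower, with a median of 0.01, and CTH, the next enzyme after CBS, had 353 and 355 counts. All 10 p53 response genes read as a check were called higher under both siRNAs, with medians of 3.23 and 2.82. With siRFX7 in DMSO, 9 of these check genes were called higher and 1 lower, where 13.5% and 15.5% of all genes were. Their difference between Nutlin-3a responses was called below 0 for 8 and above 0 for 0, where 2.92% and 3.28% of all genes were. A higher DMSO level and a smaller log2 rise under siRFX7 were thus not particular to the genes described here.

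For the 5 genes with all 4 means above the floor, the protein-coding gene with the most similar pattern was sought among 13072 genes. Similarity was the distance between centred log2 means over the 4 groups, which measures ratios between groups and not their order. DES had LRG1 at a distance of 0.157, and 141 genes lay within 1. HMCN2 had CEACAM1 at 0.58, SCN3B had WNT7A at 0.628 and CPLX2 had CPA4 at 0.718, with 2, 17 and 7 genes within 1. SORCS2 had no gene within 1, and the nearest was PLA2G4D at 1.80. CEACAM1 had 9.01, 402, 41.8 and 1096 counts in siControl with DMSO, siControl with Nutlin-3a, siRFX7 with DMSO and siRFX7 with Nutlin-3a. PLA2G4D had 183 counts in siRFX7 with Nutlin-3a against 120 in siControl with Nutlin-3a, the reverse of the SORCS2 order. Its mean of 3.003 in siControl with DMSO was barely above the floor.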

How the data were processed

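The authors deposited 4 DESeq2 result tables, 1 per pair of groups, and no library's own values entered the work. Per the submitters' processing notes the tools include Trimmomatic 0.39, cutadapt, featureCounts 1.6.5 and DESeq2 1.20.0, with build hg38; the aligner, annotation and strand handling are not given in the sources used here. Per the file headers, mean normalized counts are a signal averaged over all 12 libraries, and fold changes and their errors are log2 values. The deposited Wald statistic is a score, log2 fold change over standard error, and the adjusted ones among the deposited p-values match a Benjamini-Hochberg adjustment over each table's genes.

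Group means were recovered from mean normalized counts and fold changes, and dispersions and size factors from the standard errors, with Python 3.11.15; the recovery of means and size factors and the z test below were tested on simulated data. Products of mean and size factor between 1.5 and 12 reads lay within 0.1 of a whole read for 96.8% to 99.9% of genes. Fold changes of the knockdown tables were taken with siControl as the reference, since all 4 tables then close to within 1.27e-14. Calls used an adjusted p below 0.05. The difference between Nutlin-3a responses was tested by a two-sided z test over 23195 genes, adjusted by Benjamini-Hochberg. A mean at or below 3 counts was a floor for ratios, per library mean, covering counting error only.

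Members and lists were chosen with earlier results of these data known. Named genes are the 10 members, RFX7, MDM2, CDKN1A, CLCA2 and CBSL, listed relatives called in a table, the nearest gene by pattern and the 10 largest rises from a low baseline; marker and family genes outside that rule were named after their values were seen. Gene positions are from GENCODE v29, which held 23164 of 23195 gene IDs. Results of some listed relatives are not reported here.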

Additional observations from a re-analysis of the deposited data

Results flagged for a closer look

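A z test on the difference between the Nutlin-3a responses under the 2 siRNAs passed for 3 genes, and each is given as a value only, because the siControl response chose the genes. The difference, siRFX7 minus siControl on the log2 scale, was -1.26 (SE 0.32) for SORCS2. For CPLX2 it was -1.40 (SE 0.31), with 15.7 counts in siControl with DMSO and 156 in siRFX7 with DMSO. For COL5A1 it was -4.11 (SE 1.23), resting on about 1 read in siControl with DMSO and on a deposited error smaller than the negative binomial formula gives. Of these genes only SORCS2 also gained fewer normalized counts under siRFX7.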

How the results depend on the processing

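Values per library were not used here, so leaving out each replicate and edgeR were not run. No paired analysis was possible because the tables hold group statistics and no values per library. Keeping only genes with both means above 3 counts left 4 of the 9 genes called higher with Nutlin-3a in siControl, SORCS2, CPLX2, SCN3B and HMCN2. The 1 gene called lower with siRFX7 in Nutlin-3a, SORCS2, became 0 with a minimum absolute log2 fold change of 0.58 or 1. The share of low-baseline genes called higher was 10.1% and 13.6% in siControl with baselines of at most 20 and 100 counts, and 9.68% and 12.1% in siRFX7. With equal total counts per group, GGT6 in the siRFX7 effect in Nutlin-3a turned to 0.0022 on the log2 scale. Of 282 member values across the settings, 270 kept direction and call, 11 lost the call and 1 turned sign. Of the 270, 32 belong to the setting that keeps only genes with both means above 3 counts. That setting drops values and changes none, so those 32 could only stay the same. The values it dropped are not among the 282. SORCS2 and SCN3B in the DMSO siRFX7 comparison, POU3F1 in the Nutlin-3a one and the COL5A1 difference lost their call at an adjusted p of 0.01. Depth limits POU3F1, UNC45B and GGT6, whose DMSO means lie at or under the floor in both siRNAs. In siControl with DMSO it limits COL5A1, at 1.07 reads, and CBS, at 2.0, more than GGT6, at 6.0.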

Other observations

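The genes beside the 10 members were read as well. Within 100 kb, 38 listed genes without exon overlap lay near them, of which 19 were called higher and 7 lower with Nutlin-3a in siControl in the authors' deposited table, where 22.0% of all genes were higher and 21.2% lower. The genes singled out here were chosen after their values were seen. Beside POU3F1, the lincRNA AL139158.2 lies 520 bases away on the opposite strand and had 1.67, 43.4, 2.85 and 59.9 normalized counts in siControl with DMSO, siControl with Nutlin-3a, siRFX7 with DMSO and siRFX7 with Nutlin-3a. Strand handling is not given in the sources used here, so reads running past either gene cannot be assigned to one.

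Beside HMCN2, ASS1, the argininosuccinate synthase of the urea cycle, had 1608, 4948, 1883 and 6729 counts in the same order of groups. Beside GGT6, SMTNL2, a smoothelin-like gene, had 72.8, 357, 161 and 759 counts, and SPNS2, a sphingosine-1-phosphate transporter, had 63.8, 296, 122 and 297. SPNS2 thus had nearly the same Nutlin-3a level under both siRNAs, as GGT6 did, while SMTNL2 did not. No neighbour of SCN3B or COL5A1 was called in siControl.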
